A study of Mus musculus with 10 samples.

Results

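The genes described here build and feed the replication fork. They were taken from a list of symbols in 10 role groups: deoxynucleotide supply, origin recognition and the origin firing kinase, Cdc45 and GINS, DNA polymerase alpha and primase, DNA polymerases delta and epsilon, the sliding clamp and its loader, replication protein A, Okazaki fragment maturation, fork protection, and chromatin assembly with histone mRNA binding. All 41 symbols were found among the 52097 genes of the deposited table, and they were matched by symbol alone. The replicative helicase subunits of the MCM family and the licensing factors were not members and are given for context at the end.

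The series holds bulk RNA sequencing of stem cells of the blood, sorted from mouse bone marrow at about 5000 cells a sample. The 5 control samples are given as wild type in genotype and carry floxed Dhx16 in their titles (Dhx16_fl), and the 5 knockout samples are given as Dhx16 knockout and titled Dhx16_CKO. The Cre driver, its timing, and the strain, sex and age of the mice are not given in the sources used here, and no agent or time course is named. The sort gate took lineage-negative, Sca-1 and c-Kit positive cells that were CD150 positive and CD48 negative. The labels do not say that each sample came from a separate animal, so p-values measure only the spread between these samples. Control libraries are named WT2, WT3, WT4, WT5 and WT6 and knockout libraries CKO7, CKO8, CKO9, CKO12 and CKO13 in the table, and values per library are given in that order. Group values are means ± SD with n = 5 in each group, in FPKM (fragments per kilobase of transcript, scaled to the fragments mapped in the library), a level per length that allows genes to be compared. A log2 change is the knockout minus the control mean of log2(FPKM + 1), which understates the change of low genes. A gene is called higher or lower where the limma adjusted p is under 0.05.

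DNA replication starts at origins marked by the origin recognition complex, where the MCM ring is loaded before S phase. The Cdc7 kinase with its activator Dbf4 then allows Cdc45 and GINS to join that ring and turn it into a moving helicase. Polymerase alpha with primase lays primers, polymerase epsilon copies the leading strand and polymerase delta the lagging strand, held on DNA by the PCNA clamp, while ribonucleotide reductase and thymidylate enzymes supply the deoxynucleotides. Most haematopoietic stem cells of adult marrow rest outside the cycle, and many genes of this machinery are transcribed mainly from late G1 into S phase under E2F and retinoblastoma family control.

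Dhx16, the targeted RNA helicase gene, fell in the knockout libraries from 17.5 ± 3.81 to 9.49 ± 1.56 FPKM (log2 change -0.81, SE 0.16, adjusted p = 0.00150), and its 5 knockout libraries were all below its 5 control libraries. The fall was called under 4 of 5 scalings, with an adjusted p of 0.0675 after upper-quartile scaling. FPKM summed over all genes ran from 770789 to 957520 in control and from 877099 to 966648 in knockout libraries, and read counts per library were not used. The authors' size factors, which depend on relative depth and on library composition, were recovered from their mean normalized counts. They ran from 0.98 to 1.36 in control and from 0.73 to 1.26 in knockout libraries. Of 14007 genes with a mean of at least 1 FPKM over the 10 libraries, 1771 were called higher (12.6%) and 4731 lower (33.8%), 46.4% in either direction, with a median log2 change of -0.26. Scaling the libraries moved this balance: the share called higher was 31.6% after upper-quartile, 26.8% after median-of-ratios and 26.0% after scaling to the authors' fold changes, and 9.12% after equal-total scaling, with the lower shares at 9.4%, 12.8%, 12.3% and 40.9%. The median of all tested genes was 0.15, 0.06 and 0.07 after the first 3 scalings and -0.38 after the last. Of 10 markers of haematopoietic stem cells and of the sort gate, 8 had a higher mean in control. The share of all tested genes with a higher mean in control was not computed, and their median log2 change as deposited was -0.26. The summed level of the 10 markers was 808 to 1157 FPKM in control and 572 to 904 FPKM in knockout libraries. The 8 erythroid markers were all higher in mean in knockout, and none was at 0 in all libraries. Their summed levels were 119.8 to 397 FPKM in control and 753 to 1177 FPKM in knockout libraries. Macrophage markers summed to 117 to 272 and 10.6 to 27.5 FPKM and megakaryocyte markers to 1626 to 2299 and 782 to 1509.7 FPKM. In bulk samples fewer cells of a type and less RNA per cell cannot be told apart.

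Genes of the replication fork and of deoxynucleotide supply were higher in the Dhx16 knockout. The members were chosen with earlier results of these data known, so the shares below are not an independent test. Of the 41 members, all of which passed the filter on low values, 36 were called higher (12.6% of all tested genes), 0 lower (33.8%) and 5 were not called by limma, and the 37 members with an unadjusted p under 0.05 were all higher in knockout. The median log2 change of the members was 0.80, beside -0.26 over all tested genes, and the changes of the 36 ran from 0.31 to 1.98. In 30 members every knockout library lay above every control library, which 7.45% of all tested genes did, and in the other 11 the groups overlapped. A log2 change of at least 1 was found in 13 members and in 3.6% of all tested genes. Under all 5 scalings, the deposited values counted as 1 of them, 31 members were called higher. Over all tested genes the share called higher ran from 9.12% after equal-total to 31.6% after upper-quartile scaling. Their share called higher under all 5 scalings was not computed. Pole, the catalytic subunit of polymerase epsilon, was the 1 member with a negative change and was called lower after equal-total scaling, where 31 members were called higher. The 5 members not called were Pole, the clamp loader subunits Rfc1 and Rfc2, Rpa3 of the single-strand binding complex, and Chaf1b of the chromatin assembly factor.

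Erythroid marker levels were higher in knockout libraries too. The erythroid score, the mean log2 level of the 8 markers, was 3.43 to 5.41 in control and 6.27 to 6.84 in knockout libraries. With this score as a covariate 0 members and 0 of all tested genes were called by limma, 12 members and 1758 tested genes had an unadjusted p under 0.05, and the member median was 0.67. The score separates the groups without overlap, so the part of erythroid cells and that of the genotype cannot be told apart. Bone matrix and granulocyte markers, whose summed levels overlapped between the groups (3179.8 to 65870.5 and 4549 to 47778 FPKM for bone matrix, 9623 to 74169.6 and 8348 to 40842 FPKM for granulocytes), left 29 members higher (7.92% of all tested genes), with a median of 0.67, when their scores entered the fit.

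**Figure D1:**
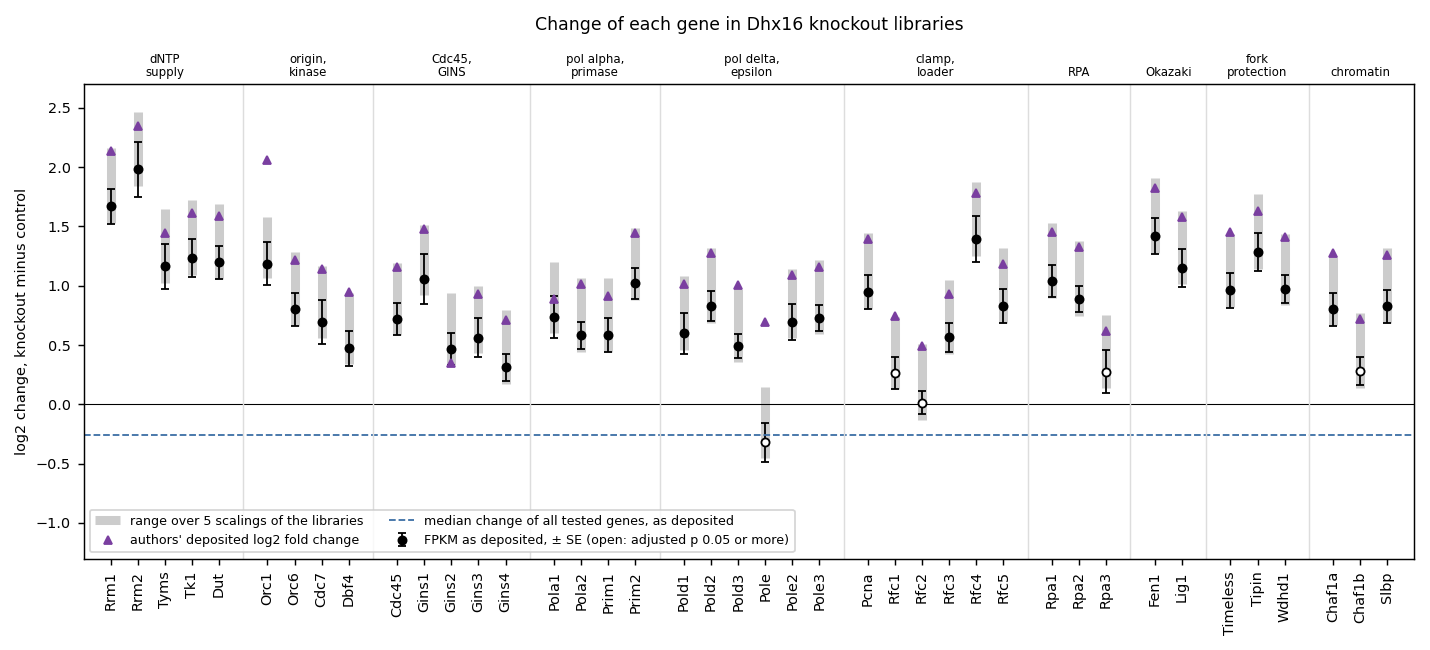
Log2 change of each of the 41 genes, knockout minus control, by role group. Black points are the changes in FPKM as deposited with their standard errors (open where the adjusted p was 0.05 or more), grey bars span 5 scalings, purple triangles are the authors' deposited log2 fold changes and the dashed line is the median of all tested genes, -0.26. All points but that of Pole lie above 0, and Rrm2 has the largest change, 1.98.

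Promoter stretches are shown because E2F factors are known regulators of this gene class and 36 of the 41 members were called higher. The windows, from RefSeq on GRCm38.p6, hold 250 bases before and 50 after each start, and 34 of the 41 members had an entry. The words searched on either strand were TTCCCGC, the classical core, then TTCGCGC and, as variants of it, TTGGCGC and also TTGCCGC. These words of 7 letters occurred in the windows of 21 of the 34 members (61.8%) and of 10.9% of 27025 genes. The longer words TTTCGCGC and TTTGGCGC, which contain shorter ones, occurred in 5 members (14.7%) and 0.929% of all genes. The CCAAT box (CCAAT) occurred in 17 of the 34 members and 41.1% of genes, and the CHR element (TTTGAA) in 17.6% and 20.2%. The median GC content was 63.0% in member windows and 52.7% in all windows, and its part in the shares was not tested. Each stretch below is 60 bases, 5′ to 3′ on the gene's strand, with the E2F words in capitals; the capitals GC that open the Pola1 stretch are the end of a word that starts before it. The first 6 belong to genes called higher. Chaf1b and Rpa3, which were not called, hold such a word too, as does Rfc1, which was not called and is not printed.
Rrm2, chr12:24708004-24708063, plus strand: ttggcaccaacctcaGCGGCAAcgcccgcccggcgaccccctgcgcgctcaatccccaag
Rrm1, chr7:102441601-102441660, plus strand: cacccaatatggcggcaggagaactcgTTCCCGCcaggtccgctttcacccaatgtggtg
Orc1, chr4:108579394-108579453, plus strand: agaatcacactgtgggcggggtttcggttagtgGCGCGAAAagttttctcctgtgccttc
Wdhd1, chr14:47277006-47277065, minus strand: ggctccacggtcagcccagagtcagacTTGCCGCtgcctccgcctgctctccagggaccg
Pola1, chrX:93632260-93632319, minus strand: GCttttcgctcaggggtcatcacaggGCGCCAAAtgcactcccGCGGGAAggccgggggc
Rfc3, chr5:151651209-151651268, minus strand: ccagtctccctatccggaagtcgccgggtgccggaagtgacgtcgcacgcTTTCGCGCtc
Chaf1b, chr16:93883651-93883710, plus strand: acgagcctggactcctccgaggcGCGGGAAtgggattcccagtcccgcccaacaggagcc
Rpa3, chr6:8259142-8259201, minus strand: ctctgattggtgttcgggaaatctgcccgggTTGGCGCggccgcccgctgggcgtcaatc
A match is a run of letters and not a measured binding site.

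All 5 genes of deoxynucleotide supply rose, and in each the groups did not overlap. Coordinates of genes are those of GENCODE mouse release 21 on the mm10 assembly. Rrm2 (ENSMUSG00000020649, chr12:24708241-24714146, plus strand) encodes the small subunit of ribonucleotide reductase, which makes deoxynucleotides from ribonucleotides. It was at 31.2, 35.3, 23.96, 17.2 and 47.7 FPKM in the control libraries and 133, 144, 98.6, 101 and 124 FPKM in the knockout libraries. Every knockout library lay above the highest control library, WT6, and Rrm2 rose from 31.1 ± 11.6 to 120.2 ± 20.002 FPKM (log2 change 1.98, SE 0.23, adjusted p = 9.59e-05). Rrm1, which encodes the large subunit, rose from 58.2 ± 11.3 to 186 ± 25.9 FPKM (log2 1.67, adjusted p = 3.03e-05). The genes of thymidylate supply follow. Tyms encodes thymidylate synthase, which makes thymidylate from deoxyuridylate. It was at 53.2, 50.2, 61.9, 33.2 and 30.5 FPKM in the control libraries and 95.8, 119, 107, 83.95 and 97.6 FPKM in the knockout libraries, with WT5 and WT6 lowest among the controls, and rose from 45.8 ± 13.5 to 101 ± 13.3 FPKM (log2 change 1.16, SE 0.19, adjusted p = 0.000499). Tk1, the cytosolic thymidine kinase of the salvage route, was at 49.97, 39.8, 47.4, 25.6 and 43.6 FPKM in the control libraries and 106, 99.3, 94.3, 87.9 and 92.8 FPKM in the knockout libraries. Its knockout libraries lay in a narrow band and its control libraries were lowest in WT5 (log2 1.23, adjusted p = 0.000138). Dut encodes the dUTPase that keeps uracil out of DNA and provides the substrate of Tyms. It was at 105, 93.9, 117, 70.1 and 91.2 FPKM in the control libraries and 239.7, 239, 196, 197 and 218 FPKM in the knockout libraries, the highest level of the 5 genes in both groups (log2 1.20, adjusted p = 7.68e-05). Within the group, Tk1 and Dut rose by less than the mean of the other genes, as given further on. Tyms has an annotated pseudogene, Tyms-ps, and Tk1 overlaps Afmid on the opposite strand; the strand setting of the counting is not given in the sources used here, so reads of such genes may be shared.

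**Figure D2:**
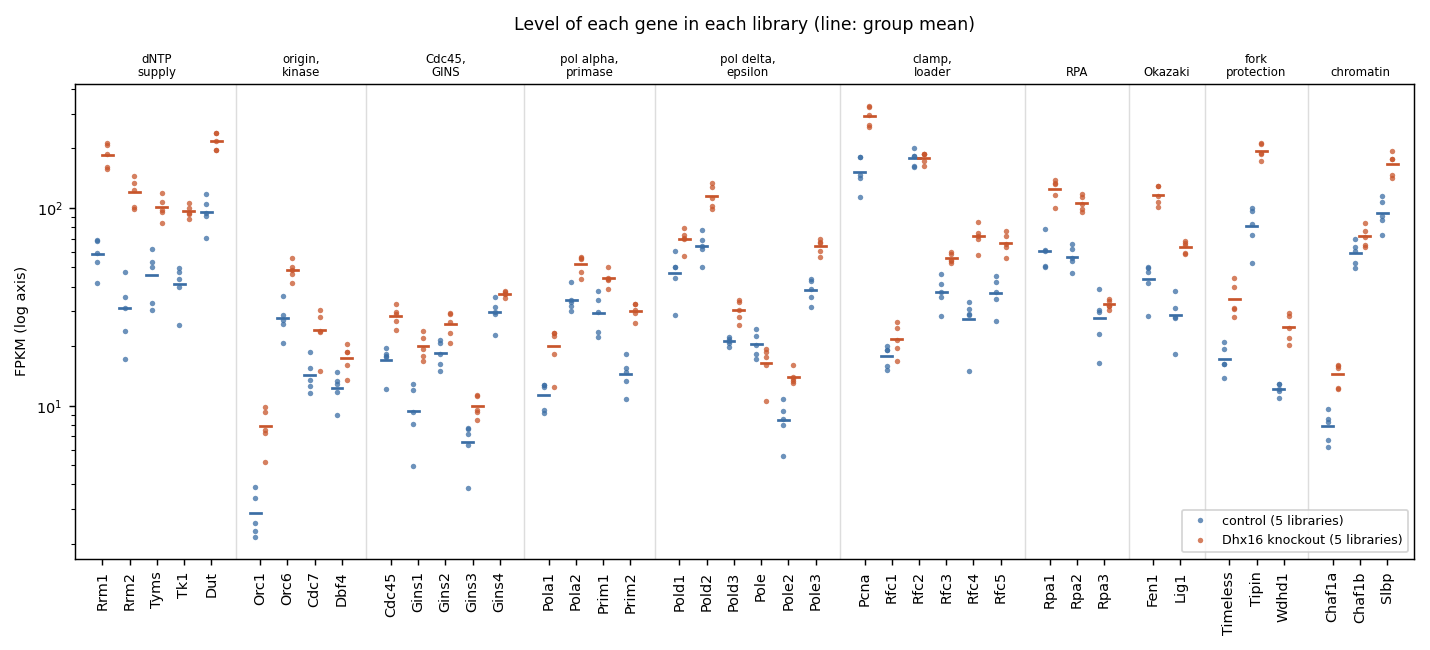
Level of each of the 41 genes in each library, in FPKM on a log axis, with control and knockout libraries as separate points and a line at each group mean. The largest change is that of Rrm2, at 17.2 to 47.7 FPKM in control and 98.6 to 144 FPKM in knockout libraries, while Rfc2 overlaps at 160.5 to 201 and 163 to 188 FPKM.

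Other enzymes of deoxynucleotide metabolism, a list chosen with earlier results of these data known, went in both directions. Of 18, 8 were called higher (12.6% of all tested genes) and 6 lower (33.8%), with a median log2 change of 0.18. The share called lower was close to that of all tested genes, and the share called higher was larger than that of all tested genes. Nme1, a nucleoside diphosphate kinase that has a close homolog beside it in the genome, had the largest rise, at 77.4, 72.6, 104, 46.5 and 82.6 FPKM in the control libraries and 168, 259, 213, 190.3 and 233 FPKM in the knockout libraries (log2 1.49, adjusted p = 0.000132). Dguok, the mitochondrial deoxyguanosine kinase, had the largest fall, at 78.97, 57.8, 90.5, 63.2 and 64.1 FPKM in the control libraries and 34.4, 32.2, 42.8, 42.6 and 33.6 FPKM in the knockout libraries (log2 -0.91, adjusted p = 0.000371). Its groups did not overlap. The remaining genes of this paragraph were chosen after their values were seen. Rrm2b, the reductase subunit that resting and damaged cells use in place of Rrm2, fell from 5.87 ± 0.757 to 2.80 ± 0.956 FPKM (log2 -0.89, adjusted p = 0.00312), and the mitochondrial thymidine kinase Tk2 fell from 30.8 ± 2.78 to 16.9 ± 2.09 FPKM (log2 -0.83, adjusted p = 0.000146). Samhd1, which degrades deoxynucleotides, fell from 50.9 ± 7.56 to 30.4 ± 7.40 FPKM (log2 -0.74, adjusted p = 0.00302). Dguok, Rrm2b and Tk2 were called lower under all 5 scalings and Samhd1 under 2. The falls of the deaminase Dctd and the nucleotidase Nt5m were also called under 2 scalings each, and Dctd had a change of 0.065 after upper-quartile scaling.

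**Figure D3:**
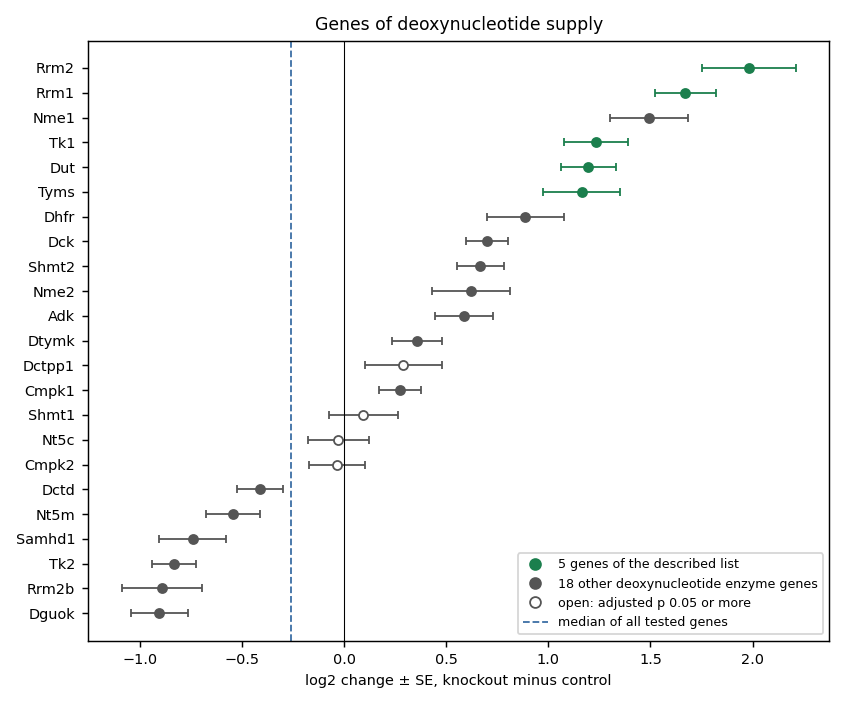
Log2 change, knockout minus control, with its standard error for 5 genes of deoxynucleotide supply (green) and 18 other enzymes of deoxynucleotide metabolism (grey), open where the adjusted p was 0.05 or more, with the median of all tested genes as a dashed line. The 5 lie between 1.16 and 1.98, and the 18 range from Dguok, at -0.91, to Nme1, at 1.49.

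All 4 genes of origin recognition and of the origin firing kinase rose, and 2 had groups that did not overlap. Orc1 (ENSMUSG00000028587, chr4:108579423-108614833, plus strand), the largest subunit of the origin recognition complex, which is known to be made anew in each cycle, was the least abundant member in both groups. It was at 2.55, 3.89, 2.32, 2.17 and 3.42 FPKM in the control libraries and 7.55, 9.90, 7.29, 5.20 and 9.32 FPKM in the knockout libraries and rose from 2.87 ± 0.748 to 7.85 ± 1.86 FPKM (log2 change 1.19, SE 0.18, adjusted p = 0.000346), with a gap between the groups. Orc6, the smallest subunit, rose from 27.7 ± 5.50 to 48.5 ± 5.20 FPKM (log2 0.80, adjusted p = 0.000684). Orc6 overlaps Vps35 on the opposite strand. Cdc7, the kinase that triggers origins, rose from 14.4 ± 2.82 to 24.2 ± 5.94 FPKM (log2 0.70, adjusted p = 0.00870), with 1 knockout library, CKO12 at 15.04 FPKM, inside the control range. Dbf4, its activating subunit, was at 14.8, 12.9, 13.4, 9.01 and 11.7 FPKM in the control libraries and 16.1, 18.6, 18.7, 13.5 and 20.6 FPKM in the knockout libraries (log2 change 0.47, SE 0.15, adjusted p = 0.0199). The groups overlapped through CKO12. The call on Dbf4 was lost without CKO13 (adjusted p = 0.0514) and after equal-total scaling.

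Cdc45 and the 4 GINS subunits, which join the MCM ring to make the active helicase, were all called higher, by unequal amounts. Gins1 (ENSMUSG00000027454, chr2:150905400-150931280, plus strand) was at 12.9, 9.34, 11.96, 4.96 and 8.10 FPKM in the control libraries and 16.9, 23.9, 21.97, 17.8 and 19.5 FPKM in the knockout libraries. Its lowest control library was WT5, all its knockout libraries lay above the controls, and it rose from 9.45 ± 3.17 to 19.99 ± 2.93 FPKM (log2 change 1.06, SE 0.21, adjusted p = 0.00163). Gins4 was at 35.4, 28.9, 31.4, 22.7 and 29.9 FPKM in the control libraries and 36.7, 37.9, 36.6, 37.5 and 35.1 FPKM in the knockout libraries. Its knockout libraries were close to each other, between 35.1 and 37.9 FPKM, and overlapped the control library WT2, and it rose from 29.7 ± 4.61 to 36.7 ± 1.07 FPKM (log2 change 0.31, SE 0.11, adjusted p = 0.0376). The call on Gins4 was lost without any single library of WT3, WT5, WT6, CKO7, CKO8, CKO9, CKO12 or CKO13 (adjusted p = 0.0531 to 0.0794) and after equal-total scaling. Without WT5 its change was 0.22. Cdc45, which travels with the fork, rose from 17.1 ± 2.86 to 28.5 ± 3.21 FPKM (log2 0.72, adjusted p = 0.00114). Gins2 rose from 18.4 ± 2.83 to 25.8 ± 3.74 FPKM (log2 0.47, adjusted p = 0.0129) with overlapping groups, and Gins3 from 6.53 ± 1.60 to 9.94 ± 1.24 FPKM (log2 0.56, adjusted p = 0.0160) without overlap. Both lost the call after equal-total scaling (adjusted p = 0.0795 and 0.0586). Cdc45 overlaps Ufd1 and Gins2 overlaps Gse1, each on the opposite strand.

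The 4 genes of DNA polymerase alpha and primase, which start each new strand, all rose. Prim2 (ENSMUSG00000026134, chr1:33453810-33669795, minus strand), the large primase subunit, was at 18.3, 14.9, 13.3, 10.8 and 15.5 FPKM in the control libraries and 29.4, 32.7, 32.5, 26.1 and 30.5 FPKM in the knockout libraries, with no overlap, and rose from 14.5 ± 2.76 to 30.2 ± 2.72 FPKM (log2 change 1.02, SE 0.13, adjusted p = 0.000140). Prim1, the catalytic primase subunit, rose from 29.6 ± 6.80 to 44.1 ± 4.11 FPKM (log2 0.58, adjusted p = 0.00671), with its lowest knockout library just above its highest control library. Pola2, the accessory subunit of polymerase alpha, was at 42.4, 31.9, 34.1, 29.99 and 33.4 FPKM in the control libraries and 55.5, 56.02, 56.5, 43.8 and 47.2 FPKM in the knockout libraries (log2 change 0.58, SE 0.12, adjusted p = 0.00178). CKO12 was its lowest knockout library and still above WT2, its highest control library. Pola1, the catalytic subunit, rose from 11.4 ± 1.83 to 19.9 ± 4.73 FPKM (log2 0.74, adjusted p = 0.00509), with CKO12 inside the control range at 12.4 FPKM.

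Among the genes of the polymerases that copy the strands, Pold1, Pold2, Pold3, Pole2 and Pole3 rose and Pole was not called. Pold2 (ENSMUSG00000020471, chr11:5872180-5878292, minus strand), an accessory subunit of polymerase delta, was at 77.01, 64.1, 68.5, 50.4 and 61.9 FPKM in the control libraries and 98.4, 128, 133, 103 and 112 FPKM in the knockout libraries, without overlap, and rose from 64.4 ± 9.75 to 115 ± 15.3 FPKM (log2 change 0.83, SE 0.13, adjusted p = 0.000413). The catalytic subunit Pold1 rose from 46.9 ± 11.8 to 69.8 ± 7.82 FPKM (log2 0.60, adjusted p = 0.0138) with CKO13 inside the control range, and the call was lost after equal-total scaling (adjusted p = 0.0880). The accessory subunit Pold3 rose from 21.1 ± 0.963 to 30.4 ± 3.62 FPKM (log2 0.50, adjusted p = 0.00198). In polymerase epsilon the catalytic subunit was not called. Pole (ENSMUSG00000007080, chr5:110286306-110337474, plus strand) was at 18.2, 17.2, 24.5, 20.4 and 22.6 FPKM in the control libraries and 17.7, 19.4, 18.6, 10.5 and 16.1 FPKM in the knockout libraries, and the groups overlapped (log2 change -0.32, SE 0.16, adjusted p = 0.123). Its lowest library was CKO12. Pole2, the second subunit, rose from 8.46 ± 1.95 to 14.04 ± 1.22 FPKM (log2 0.69, adjusted p = 0.00284) and the histone-fold subunit Pole3 from 38.4 ± 4.97 to 64.2 ± 5.44 FPKM (log2 0.73, adjusted p = 0.000324), both without overlap of the groups. The Pole2 gene overlaps the annotated protein-coding gene Gm49384 on the same strand, so reads may be shared. Pole4, another histone-fold subunit and not a member, had means of 59.6 ± 11.2 and 56.9 ± 2.81 FPKM without a call as deposited (log2 -0.05, adjusted p = 0.768), but was called higher under 3 of the 5 scalings; it was named after its value was seen. In the authors' deposited table Pole had a log2 fold change of 0.70 (adjusted p = 0.00345), higher in knockout, opposite in sign to the change in FPKM as deposited. The sign in FPKM depended on the scaling: the change of Pole was 0.15 after upper-quartile, 0.045 after median-of-ratios and 0.062 after the authors' scaling, not called in each, and -0.46 (adjusted p = 0.0382) after equal-total scaling. The cause of the gap that remained was not tested.

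Pcna and 3 of the 5 loader genes rose, and the changes of the loader subunits ran from 0.01 to 1.39. Pcna (ENSMUSG00000027342, chr2:132249162-132253314, minus strand), the sliding clamp, was at 181, 142, 180.3, 113 and 147 FPKM in the control libraries and 329, 295, 255, 325 and 261 FPKM in the knockout libraries. All knockout libraries lay above the controls, and Pcna rose from 153 ± 28.4 to 293 ± 34.3 FPKM (log2 change 0.95, SE 0.14, adjusted p = 0.000320), the highest mean of all members in knockout libraries. Annotated pseudogenes, Pcna-ps1 and Pcna-ps2, may share its reads. Rfc4, a small subunit of the loader that opens the clamp, was at 29.2, 28.6, 30.99, 15.1 and 33.6 FPKM in the control libraries and 69.3, 85.3, 72.4, 58.1 and 74.7 FPKM in the knockout libraries. It rose from 27.5 ± 7.20 to 71.96 ± 9.82 FPKM (log2 change 1.39, SE 0.19, adjusted p = 0.000196), and WT5 stood below the other control libraries. Rfc2 (ENSMUSG00000023104, chr5:134581366-134601805, plus strand), another small subunit, was at 201, 183, 183, 164 and 160.5 FPKM in the control libraries and 187, 188, 173, 188 and 163 FPKM in the knockout libraries. It had the highest control mean of all members, its groups overlapped, and its means were 178 ± 16.7 and 179.6 ± 11.6 FPKM (log2 change 0.01, SE 0.10, adjusted p = 0.921). Rfc1, the large subunit, was at 19.2, 19.1, 15.9, 19.99 and 15.2 FPKM in the control libraries and 24.7, 26.5, 21.4, 19.7 and 16.8 FPKM in the knockout libraries. Its groups overlapped and it was not called (log2 change 0.26, SE 0.13, adjusted p = 0.125), except without CKO13 (log2 0.35, adjusted p = 0.0477). Rfc5 rose from 37.3 ± 7.19 to 66.5 ± 7.97 FPKM (log2 0.83, adjusted p = 0.000720) and Rfc3 from 37.8 ± 6.65 to 55.8 ± 3.05 FPKM (log2 0.57, adjusted p = 0.00275), both without overlap. Rfc1 and Rfc2 were called higher under 3 of the 5 scalings, with changes of 0.63 and 0.40 after median-of-ratios scaling, and Rfc2 was at -0.13 and not called after equal-total scaling. Rfc2 overlaps Lat2, Rfc4 overlaps Eif4a2 and Rfc5 overlaps Wsb2, each on the opposite strand.

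Replication protein A coats single-stranded DNA at the fork, and 2 of its 3 genes rose. Rpa1 (ENSMUSG00000000751, chr11:75298166-75348324, minus strand), the large DNA-binding subunit, was at 77.9, 60.8, 50.3, 50.6 and 61.5 FPKM in the control libraries and 132, 134, 138, 100.4 and 117 FPKM in the knockout libraries. It rose from 60.2 ± 11.2 to 124 ± 15.6 FPKM (log2 change 1.04, SE 0.14, adjusted p = 0.000152) without overlap. Rpa2, the subunit phosphorylated under replication stress, rose from 56.8 ± 7.32 to 106 ± 9.43 FPKM (log2 0.89, adjusted p = 0.000107). Rpa3, the small subunit, was at 29.8, 23.02, 38.8, 16.5 and 30.5 FPKM in the control libraries and 31.9, 33.9, 34.5, 30.5 and 31.9 FPKM in the knockout libraries. Its knockout libraries lay inside the wide control range, its means were 27.7 ± 8.43 and 32.5 ± 1.63 FPKM, and it was not called (log2 change 0.28, SE 0.18, adjusted p = 0.232). After median-of-ratios scaling its change was 0.65 and called.

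Both genes of Okazaki fragment maturation rose without overlap. Fen1 (ENSMUSG00000024742, chr19:10199132-10204169, minus strand), the nuclease that removes primer flaps, was at 47.3, 49.7, 41.6, 28.5 and 50.2 FPKM in the control libraries and 129, 129.8, 115, 101 and 107 FPKM in the knockout libraries and rose from 43.5 ± 9.03 to 116 ± 12.8 FPKM (log2 change 1.42, SE 0.15, adjusted p = 5.83e-05). Lig1, the ligase that seals the remaining nicks, was at 27.7, 31.2, 38.2, 18.3 and 28.2 FPKM in the control libraries and 67.8, 66.2, 65.1, 58.8 and 59.3 FPKM in the knockout libraries and rose from 28.7 ± 7.18 to 63.4 ± 4.14 FPKM (log2 change 1.15, SE 0.16, adjusted p = 0.000197). WT5 was the lowest control library in both genes. Fen1 overlaps Tmem258 and Lig1 overlaps Zswim9 on the opposite strand.

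The 3 genes of fork protection rose without overlap. Tipin (ENSMUSG00000032397, chr9:64281581-64305424, plus strand), which with Timeless holds the helicase and the polymerases together, was at 99.6, 82.7, 96.6, 52.8 and 73.1 FPKM in the control libraries and 213, 209.8, 172, 188 and 189 FPKM in the knockout libraries. It rose from 80.9 ± 19.02 to 194 ± 16.9 FPKM (log2 change 1.28, SE 0.16, adjusted p = 0.000110), with WT5 lowest among the controls. Timeless was at 20.9, 16.3, 19.4, 13.8 and 16.2 FPKM in the control libraries and 31.2, 39.7, 44.2, 28.2 and 30.7 FPKM in the knockout libraries, highest in CKO9, and rose from 17.3 ± 2.84 to 34.8 ± 6.82 FPKM (log2 change 0.96, SE 0.15, adjusted p = 0.000389). Wdhd1, which links the helicase to polymerase alpha, rose from 12.1 ± 0.831 to 24.9 ± 3.996 FPKM (log2 0.97, adjusted p = 0.000103), and its control libraries lay within 10.9 to 12.9 FPKM.

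Of the 3 genes for chromatin behind the fork, 2 rose. Slbp (ENSMUSG00000004642, chr5:33634952-33652574, minus strand), which binds the stem-loop of replication-dependent histone mRNAs, was at 107, 91.02, 114, 72.99 and 87.3 FPKM in the control libraries and 178, 194, 147, 178 and 141 FPKM in the knockout libraries and rose from 94.4 ± 16.3 to 167 ± 22.4 FPKM (log2 change 0.83, SE 0.14, adjusted p = 0.000609) without overlap. Chaf1a, the large subunit of chromatin assembly factor 1, rose from 7.86 ± 1.42 to 14.4 ± 1.99 FPKM (log2 0.80, adjusted p = 0.000779), also without overlap. Chaf1b, its middle subunit, was at 70, 52.6, 63.2, 49.8 and 60.6 FPKM in the control libraries and 71.4, 76.8, 83.7, 64.8 and 63.2 FPKM in the knockout libraries. Its groups overlapped and it was not called (log2 change 0.28, SE 0.12, adjusted p = 0.0706), except without WT2 (log2 0.34, adjusted p = 0.0378), with library quality weights (adjusted p = 0.0179) and under 3 of the 5 scalings. Chaf1a overlaps Ubxn6 on the opposite strand.

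The genes of a role group did not all change by the same amount. A role group is a list by function and need not be a single complex. For each gene, log2(FPKM + 1) minus the mean of the other genes of its role group was compared between groups by a two-sided exact permutation test, in which scaling of a library cancels apart from the added 1. Of 40 such differences, which are linked within a group, 14 passed after adjustment over the 40 and 22 had an unadjusted p under 0.05. Such differences were not computed for groups of other genes, so the count has no share to be read against. Over all tested genes 46.4% were called by limma in either direction. The smallest p that 5 against 5 libraries allow is 0.00794, and the 14 had this p (adjusted p = 0.0244) except Pcna (exact p = 0.0159, adjusted p = 0.0454). The libraries of the groups did not overlap in 13 of the 14, which the smallest p already implies, and overlapped in Pcna.

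In the clamp loader group Rfc4 gained on its partners and Rfc2 lost ground. Relative to the mean of the other 5 genes, Rfc4 was at -1.11 ± 0.35 in control and -0.24 ± 0.18 in knockout libraries, a difference of 0.87. Rfc2 was at 2.13 ± 0.16 in control and 1.34 ± 0.11 in knockout libraries, a difference of -0.79. Pcna was at 1.84 ± 0.12 in control and 2.18 ± 0.21 in knockout libraries, a difference of 0.34. Thus Rfc2, the most abundant loader transcript in both groups, lay closer to its partners in the knockout. Polymerase epsilon's catalytic gene had the largest difference of all: Pole was at -0.49 ± 0.32 in control and -1.48 ± 0.25 in knockout libraries, a difference of -0.99. In the same group Pold2 was at 1.43 ± 0.12 in control and 1.82 ± 0.12 in knockout libraries, a difference of 0.39. Pole lay below the mean of its partners in both groups, and further below it in knockout. Within replication protein A, Rpa3 was at -1.09 ± 0.39 in control and -1.78 ± 0.09 in knockout libraries, a difference of -0.69. Rpa1 was at 0.60 ± 0.33 in control and 1.06 ± 0.12 in knockout libraries, a difference of 0.46. The small subunit thus lost ground against the large one. Chaf1b, relative to Chaf1a and Slbp, was at 1.06 ± 0.12 in control and 0.52 ± 0.15 in knockout libraries, a difference of -0.53, and Dbf4, relative to Cdc7 and the ORC genes, was at 0.16 ± 0.09 in control and -0.26 ± 0.13 in knockout libraries, a difference of -0.42. In the helicase group Gins1 had a difference of 0.54 and Gins4 of -0.39. The remaining 3 were Prim2 at 0.39, Dut at -0.32 and Tk1 at -0.27. Without CKO7 or without CKO12, 0 of the 40 passed (lowest adjusted p 0.0529 in both cases, with 18 and 21 at an unadjusted exact p under 0.05), while the sign of all 14 was kept in the 14 settings tried. Pcna was also lost without WT2, WT3, WT5 or WT6 (adjusted p = 0.0668 to 0.0794), Tk1 without CKO8, CKO9 or CKO13 (0.0529 to 0.0680) and Rpa1 without CKO9 (0.0529). Taken from the authors' deposited log2 fold changes, the same differences had the same sign in all 14, with -0.41 for Pole, -0.71 for Rfc2 and 0.83 for Rfc4.

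**Figure D4:**
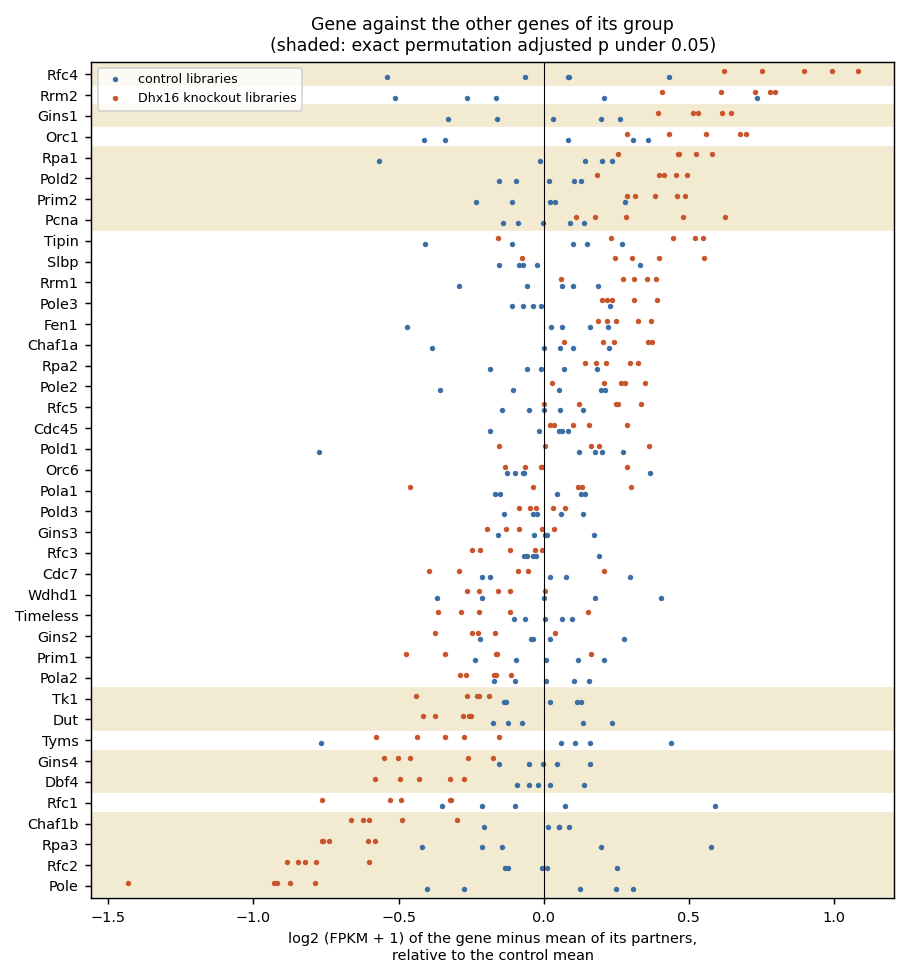
Log2 level of each gene minus the mean of the other genes of its role group, with Fen1 shown against Lig1, 1 point per library, centred on the control mean, with shading where the exact permutation adjusted p was under 0.05. Rfc4 and Gins1 lie to the right of their control libraries, and Pole, Rfc2 and Rpa3 to the left, with differences of -0.99, -0.79 and -0.69.

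The authors' deposited table called all 41 members higher at an adjusted p under 0.05, where 17.1% of the 23405 genes with an adjusted p were called higher and 11.5% lower. These 23405 genes include low genes outside the 14007 that passed the filter on low values, as all members did. The authors' shares among the 14007 were not computed. The authors' log2 fold change exceeded the change in FPKM by a median of 0.42 over the members and 0.37 over all tested genes, whose values ran from -0.15 at the 5th to 0.61 at the 95th percentile. Rrm2 had 2.35, Rrm1 2.14, Fen1 1.82 and Rfc4 1.78 in the authors' deposited table. Pole stood apart, with an authors' value 1.02 above its FPKM change (percentile 99.0 of all tested genes). Orc1, at 2.06 in the authors' deposited table and 1.19 in FPKM, differed by 0.87 (percentile 98.6). It was the least abundant member, and the 1 added to FPKM understates the change of low genes. Gins2 went the other way, at 0.35 in the authors' deposited table and 0.47 in FPKM (percentile 5.69). The 5 members that limma did not call had 0.70 for Pole, 0.75 for Rfc1, 0.50 for Rfc2, 0.62 for Rpa3 and 0.72 for Chaf1b in the authors' deposited table.

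Among control libraries WT5 had the lowest level in 34 of the 41 members, as in 26.0% of all tested genes, and WT2 the highest in 26 members (36.8% of all tested genes). The median deviation of the members from their control mean was -0.37 in WT5 and 0.24 in WT2 on the log2 scale, beside -0.05 and 0.13 over all tested genes. Among knockout libraries CKO12 was lowest in 24 members (37.9% of all tested genes) and CKO8 highest in 20 (21.7%), with median deviations of -0.19 and 0.16. For the members, the knockout libraries were closer to each other than the control libraries. The median coefficient of variation of the members was 11.9% in knockout and 18.6% in control libraries, beside 19.0% and 19.3% over all tested genes. Without WT5 and CKO12 together, an alternative added after seeing the data, 34 members were called higher and the median was 0.78. The share of all tested genes called in this fit is not given here.

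**Figure D5:**
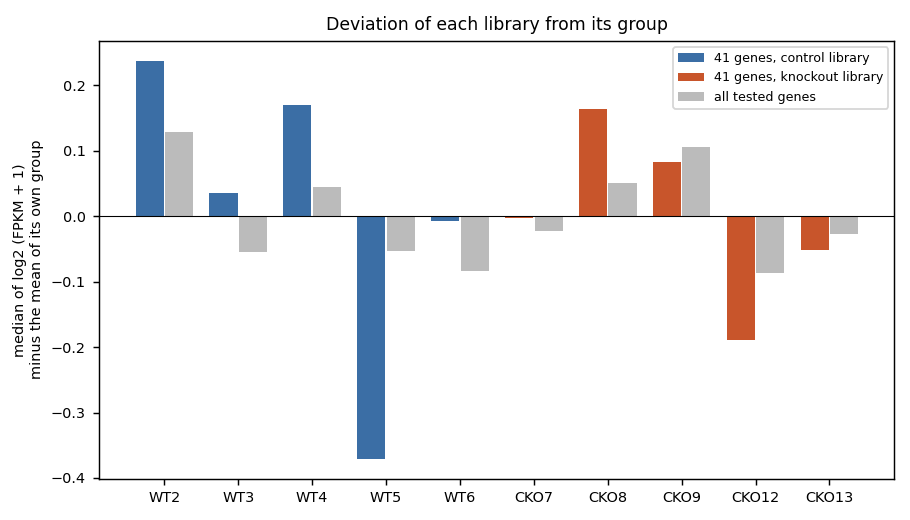
Median deviation of each library from its group mean of log2(FPKM + 1), for the 41 members and for all 14007 tested genes. WT5 shows the lowest member bar, at -0.37, where the bar of all tested genes is at -0.05.

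Pathway genes outside the members, in lists chosen with earlier results of these data known, gave the setting. Of 14 genes of the MCM helicase and of licensing, 12 were called higher and 0 lower (12.6% and 33.8% of all tested genes), with a median of 1.26. Cdc6, which loads the MCM ring onto DNA, had the largest rise, at 11.9, 11.7, 7.71, 5.66 and 13 FPKM in the control libraries and 36.2, 37.5, 32.3, 26.5 and 31.7 FPKM in the knockout libraries (log2 1.67, adjusted p = 8.89e-05), with no overlap. Orc3 (log2 0.14, adjusted p = 0.364) and Orc4 (log2 -0.04, adjusted p = 0.822), subunits of the origin recognition complex beside Orc1 and Orc6, were not called, and both were called higher after upper-quartile and median-of-ratios scaling. Of 28 other fork factors, 21 were called higher and 2 lower, with a median of 0.64. Dna2, a nuclease and helicase that trims long flaps, rose from 8.92 ± 1.81 to 30.2 ± 8.38 FPKM (log2 1.62, adjusted p = 0.000137), with CKO12 lowest of its knockout libraries. Pold4, the small subunit of polymerase delta, was at 67.9, 54.7, 109.9, 72.1 and 63.95 FPKM in the control libraries and 28.1, 25.2, 29.2, 34.9 and 23.6 FPKM in the knockout libraries. It fell under all 5 scalings, without overlap (log2 -1.33, adjusted p = 0.000139), where Pold1, Pold2 and Pold3 were higher. The topoisomerase Top1 also fell (log2 -0.36, adjusted p = 0.0161), but its change was positive and not called after upper-quartile, median-of-ratios and the authors' scaling. Orc3, Orc4 and Top1 were named after their values were seen.

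Genes of the E2F and retinoblastoma family, known regulators of S phase genes, went in both directions: of 18, 5 were called higher and 1 lower (12.6% and 33.8% of all tested genes), with a median of 0.09. Mybl2, an activator of cell cycle genes that is itself an E2F target, had the largest rise, from 8.50 ± 2.57 to 19.4 ± 3.79 FPKM (log2 1.12, adjusted p = 0.000837). E2f5 had the fall, from 4.23 ± 0.557 to 2.42 ± 0.516 FPKM (log2 -0.62, adjusted p = 0.00376), and was called under 2 of 5 scalings. E2f4, a family member known mainly as a repressor in resting cells, rose from 29.7 ± 4.51 to 63.8 ± 10.1 FPKM (log2 1.07, adjusted p = 0.000112) and the E2F partner Tfdp1 from 59.9 ± 7.33 to 88.5 ± 7.80 FPKM (log2 0.56, adjusted p = 0.00137), both without overlap and under all 5 scalings. E2f4 had the highest mean of the E2f genes in both groups. E2f1, an activator of S phase genes, had means of 5.01 ± 0.652 and 4.40 ± 0.498 FPKM without a call (log2 -0.15, adjusted p = 0.326). E2f4, Tfdp1 and E2f1 were named after their values were seen. The number called higher was 10 after upper-quartile scaling (31.6% of all tested genes) and 3 after equal-total scaling (9.12%). It was 3 without WT5, without CKO8 or without CKO9.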

How the data were processed

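The samples were 5 control and 5 Dhx16 knockout libraries of sorted mouse haematopoietic stem cells. The submitters' processing notes name the tools HTSeq, Cufflinks 2.1.1 and Bowtie 0.12.9 and the build mm10, with no roles. The deposited library columns, whose unit the header does not name, were taken as FPKM from their values. Per the file headers the authors also gave a mean normalized count (a signal averaged over libraries), log2 fold changes with standard errors, a test score, and p-values with adjusted p-values, in the column names of DESeq2. No counts per library were used, so absolute depth is unknown and no count model was run. Size factors of the authors were recovered from genes with 1 read in 1 library. Columns were assigned to groups by their names, not to titled samples. All 52097 gene identifiers matched GENCODE mouse release 21.

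Levels were compared with limma 3.58.1 in R 4.3.3 (trend and robust options) on log2(FPKM + 1), for genes with a mean of at least 1 FPKM over the 10 libraries, with Benjamini-Hochberg adjustment over 14007 genes and a threshold of 0.05. The filter uses the mean over all libraries, which a gene high in 1 group can reach through that group. Differences within a role group used exact permutation in Python 3.11.15. The fits were tested on simulated data, with 100 genes changed at each of 2 sizes among 14007. Of changes of log2 size 1, 78 of 100 were called, and of size 0.5, 16 of 100, with 5 false calls. Few genes were changed there, so these shares need not hold for the real libraries. A gene not called may still have changed. Alternatives were other pseudocounts, filters, scalings, weights, marker scores as covariates and leaving out libraries. The members and lists were chosen with earlier results of these data known. Every member was named. Values per library were given for the largest and smallest change of each role group, for members not called, for members whose difference within the group passed, and for Pcna. From each pathway list the largest rise and fall were named, and Dhx16 as a label check. Marker lists for B and T lymphocytes were also scored: their summed levels were 30.2 to 50.1 and 10.7 to 14.2 FPKM in control and 18.9 to 32.4 and 7.42 to 10.1 FPKM in knockout libraries.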

Additional observations from a re-analysis of the deposited data

Results flagged for a closer look

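In 2 of the 82 groups of 5 libraries examined (41 genes in each of control and knockout), 1 library stood apart from the rest by Dixon's test at the 95% level; chance gives about 1 in 20. Both were low values in WT5. Cdc45 was at 12.1 FPKM in WT5 and at 17.6 to 19.5 FPKM in the other control libraries, and without WT5 its log2 change was 0.61 (limma adjusted p = 0.00185) in place of 0.72. Rfc4 was at 15.1 FPKM in WT5 and at 28.6 to 33.6 FPKM in the other control libraries, and without WT5 its log2 change was 1.20 (limma adjusted p = 0.000151) in place of 1.39. WT5 was also the lowest control library in 34 of the 41 members.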

How the results depend on the processing

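No paired analysis was possible because the library columns carry other numbers than the sample titles and cannot be tied to a replicate number. Absolute depth is unknown. The authors' size factors (0.98 to 1.36 in control, 0.73 to 1.26 in knockout libraries) depend on relative depth and on library composition and do not give absolute depth.

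Leaving out each library in turn gave 35 to 37 members called higher and 0 lower. The shares of all tested genes called in these fits are not given here. Equal-total scaling gave 1 member called lower (Pole) and the erythroid covariate 0 called higher. Counts over all tested genes depended on scaling: 4430, 3750 and 3646 were called higher and 1316, 1796 and 1717 lower after upper-quartile, median-of-ratios and the authors' scaling. With bone matrix and granulocyte covariates 1110 were called higher, with the erythroid covariate 0 in either direction, and with filters of 10 FPKM in at least 5 libraries or in the mean 2182 and 2109 were called lower, among fewer genes.

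The count called higher among other fork factors was 13 with bone matrix and granulocyte covariates. Among other deoxynucleotide enzymes it was 4 with those covariates and 5 without a filter or when the library of each group highest in bone matrix score, highest in granulocyte score, or lowest in most members was left out. In the E2F and retinoblastoma family it was 10 and 9 after upper-quartile and the authors' scaling, and 3 after equal-total scaling, without a filter, and when the library of each group highest in bone matrix, granulocyte, macrophage or erythroid score was left out. It was 3 to 6 when each library was left out in turn. All 4 pathway lists together had 4 genes called lower after upper-quartile, median-of-ratios and the authors' scaling. With the erythroid covariate the counts of MCM and licensing genes, other fork factors, other deoxynucleotide enzymes and the E2F family were 0. Differences within role groups that passed ranged from 0 (without CKO7 or CKO12) to 20 when each library was left out.

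Among members Pole ran from -0.46 to 0.15 and Rfc2 from -0.13 to 0.51 over the 5 scalings. Of pathway genes with a negative change as deposited and no call, Nt5c, Tfdp2, Cmpk2 and Lin54 were called higher after upper-quartile scaling (0.45, 0.37, 0.43 and 0.36). Directions also turned for Dctd (0.065 after upper-quartile scaling), Top1 (0.12, 0.012 and 0.027 after upper-quartile, median-of-ratios and the authors' scaling), Orc4 (0.44 and 0.33 after the first 2), Pole4 (0.44, 0.33 and 0.35) and Mybl2 (-0.071 with the erythroid covariate). The cause of these changes was not tested.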

Other observations

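The gap between the authors' deposited log2 fold change and the change in FPKM was not the same in all members. In the authors' deposited table Orc1 was at 2.06 and Pole at 0.70, against changes in FPKM of 1.19 and -0.32, while Rrm2 was at 2.35 against 1.98 and Tyms at 1.45 against 1.16. After median-of-ratios scaling of FPKM the change of Rrm2 was 2.36 and that of Tyms 1.54, while Orc1 was at 1.495 and Pole at 0.045, still 0.56 and 0.65 below the authors' values. Orc1 had means of only 2.87 and 7.85 FPKM in control and knockout libraries, where the added 1 understates the change. Pole, at 20.6 and 16.5 FPKM, was less open to this.

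Control and knockout libraries both had a spread of levels within role groups. In control libraries the highest and lowest mean of a role group differed by 9.98-fold in the clamp and loader group, from Rfc1 to Rfc2, and by 12.0-fold among the chromatin genes, from Chaf1a to Slbp. In knockout libraries these ratios were 13.4, from Rfc1 to Pcna, and 11.6.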
